A study of Mus musculus with 2 samples.

Results

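The 9 genes described here are the core components of the Hedgehog pathway that the study's matrices list under the symbols Ihh, Ptch1, Smo, Gli1, Gli2, Gli3, Hhip, Boc and Gas1. They were taken by symbol from the gene lists of both matrices, which share 27514 genes (31053 genes are listed at E15.5 and 27998 at E17.5). The cells came from wild-type C57/BL6 mouse embryos, dissected at the coronal suture between the frontal and parietal bones. The E15.5 library pooled 10 sutures in 1 batch, digested with collagenase II plus dispase and depleted of dead cells with a kit. At E17.5 the library joins 3 batches of 10, 3 and 3 sutures from 2 litters, dissociated with collagenase IV and sorted for live cells. Stage, enzyme, sorting, embryos and counting software differ together and cannot be told apart, and with 1 library per stage no test between stages was possible. None was made between cell groups, since the clusters were built from the expression of these same cells.

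Hedgehog proteins are secreted signals. The receptor Ptch1 holds the membrane protein Smo inactive until a Hedgehog ligand binds it, after which Smo acts at the primary cilium to turn the Gli transcription factors toward activation. Ptch1, Gli1 and Hhip are themselves among the best known target genes of the pathway, so their transcripts are widely read as a record of signal received. In bone, Ihh is known as the ligand of prehypertrophic chondrocytes and of osteoblasts.

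In the coordinates of GRCm38, Ihh (ENSMUSG00000006538) spans chr1:74945315-74951672, Ptch1 (ENSMUSG00000021466) chr13:63508328-63573598, Smo (ENSMUSG00000001761) chr6:29735503-29761365, Gli1 (ENSMUSG00000025407) chr10:127329882-127341974, Gli2 (ENSMUSG00000048402) chr1:118834132-119053619, Gli3 (ENSMUSG00000021318) chr13:15463235-15730026, Hhip (ENSMUSG00000064325) chr8:79965851-80058006, Boc (ENSMUSG00000022687) chr16:44485049-44558897 and Gas1 (ENSMUSG00000052957) chr13:60174405-60177365. The RefSeq promoter table of GRCm38.p6 held 7 of the 9 genes, with Gli1 and Boc not in it. The 250 bases before the start site are shown for the ligand, the receptor and the secreted antagonist, because the levels of these genes separate the osteogenic cells from the other layers in at least 1 library. They lie at chr1:74951673-74951922 for Ihh, chr13:63565736-63565985 for Ptch1 (a start site inside the span given above) and chr8:80058009-80058258 for Hhip, all on the minus strand. Capitals mark the GC box GGGCGG or its reverse complement.
Ihh: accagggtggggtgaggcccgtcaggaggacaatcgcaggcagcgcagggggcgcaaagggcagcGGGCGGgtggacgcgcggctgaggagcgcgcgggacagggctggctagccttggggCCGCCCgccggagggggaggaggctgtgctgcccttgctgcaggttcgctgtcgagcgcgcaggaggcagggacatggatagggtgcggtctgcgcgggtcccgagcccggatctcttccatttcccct
Ptch1: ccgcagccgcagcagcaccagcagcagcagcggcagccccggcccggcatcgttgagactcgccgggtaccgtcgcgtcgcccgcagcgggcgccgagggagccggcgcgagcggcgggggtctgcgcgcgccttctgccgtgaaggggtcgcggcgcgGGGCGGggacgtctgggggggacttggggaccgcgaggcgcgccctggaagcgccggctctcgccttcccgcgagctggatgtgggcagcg
Hhip: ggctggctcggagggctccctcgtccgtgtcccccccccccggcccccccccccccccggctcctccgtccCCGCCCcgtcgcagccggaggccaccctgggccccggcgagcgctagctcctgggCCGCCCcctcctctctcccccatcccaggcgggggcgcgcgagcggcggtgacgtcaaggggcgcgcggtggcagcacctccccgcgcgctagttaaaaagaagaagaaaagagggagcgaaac
GC made up 72.0% of these bases for Ihh, 78.4% for Ptch1 and 76.0% for Hhip, with 24, 41 and 28 CpG dinucleotides, against medians of 52.4% and 6 over the 32851 windows in the table. Over the 300 bases from 250 before to 50 after the start, the GC box was found on either strand in 35.7% of all windows and in 6 of the 7 members' windows, all but that of Smo. The letters GACCACCCA, the core recognised by Gli proteins, were found on either strand in 0.253% of all windows (6.74% with 1 mismatch allowed) and in 0 of the 7. The Runx letters TGTGGT, whose reverse complement shares ACCAC with the Gli core, were found in 16.8% of all windows and in 1 of the 7, that of Gli3, on the reverse strand at 120 bases before the start. A match in such a window is a description of letters and not a binding site.

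The authors assigned 15 clusters to the osteogenic and mesenchymal cells: OG1 to OG4 and the proliferating PO1 and PO2 (osteogenic here), EC1 to EC4 and the ligament-like LIG (ectocranial), and MG1 to MG4 (meningeal). The matrices hold 5335 of these cells at E15.5 with 48607817 unique molecular identifiers (UMIs) and 6830 at E17.5 with 92585034, at medians of 8510 and 12302 UMIs per cell. The osteogenic, ectocranial and meningeal lineages held 1287, 3406 and 642 cells in the E15.5 library, against 3425, 2142 and 1263 in the later one. Levels are given as CPM, a gene's summed UMIs per 1000000 UMIs of the same cells, with exact Poisson 95% intervals, shares with Clopper-Pearson intervals and ratios with exact binomial intervals, all of which cover counting error only. As 3′ counts, they were compared between cells for 1 gene, not between genes. Unlabelled cells with haematopoietic markers served as a reference level: 379 and 623 cells in the order of the stages, with median depths of 8389 and 9726 UMIs. They held 142 UMIs of Ptch1 and 120 of Smo at E17.5, and whether they express these genes was not tested. Some clusters lay below this reference for Ptch1 (2 clusters) and Hhip (3 clusters) at E17.5, so for these genes it is a point of comparison and no floor. Barcodes at E17.5 carry suffixes 1, 2 and 3 (1234, 2770 and 2826 cells), which the labels do not tie to batches. The stages share 94 barcodes, and pairs of suffixes share 8, 9 and 20.

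The labels were read against 6 osteogenic markers (Runx2, Sp7, Dlx5, Ifitm5, Dmp1 and Ibsp). Their summed level in OG4 was 45499 CPM at E15.5 and 17512 CPM at E17.5, above every other cluster. At E15.5 the sum was 752 CPM in OG3, 154 in OG1, 139 in OG2, 79.8 in PO1 and 78.5 in PO2. The 4 lowest of these lie near the ectocranial and meningeal clusters (60.5 to 154 CPM), and 5 UMIs or fewer of Sp7 were found in PO1 and PO2. At E17.5 OG1, OG2, PO1 and PO2 reached 498, 659, 898 and 600 CPM. Ectocranial cells had 287 CPM and haematopoietic cells 240 CPM. Of the ectocranial clusters EC1 was highest with 461 CPM, near OG1. The summed markers therefore do not set OG1, OG2, PO1 and PO2 apart from the other layers at E15.5. They include Ifitm5 and Dmp1, which the paper describes as markers of mature osteoblasts. A low sum thus does not show that a cluster is not osteogenic. The paper's assignment also used Dlx6, and it describes Runx2 and Sp7 as increasing from OG1 to OG4. Results that rest on OG2, PO1 and PO2 are also given without them, and those that rest on OG1 as well are given for OG3 and OG4 alone. In OG1 at E15.5, UMIs of 4 keratinocyte markers summed to 402 CPM, while 229 of its 261 cells held none and no other cluster exceeded 35.6 CPM. Values of OG1 are given without those cells where a result turns on them.

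**Figure D1:**
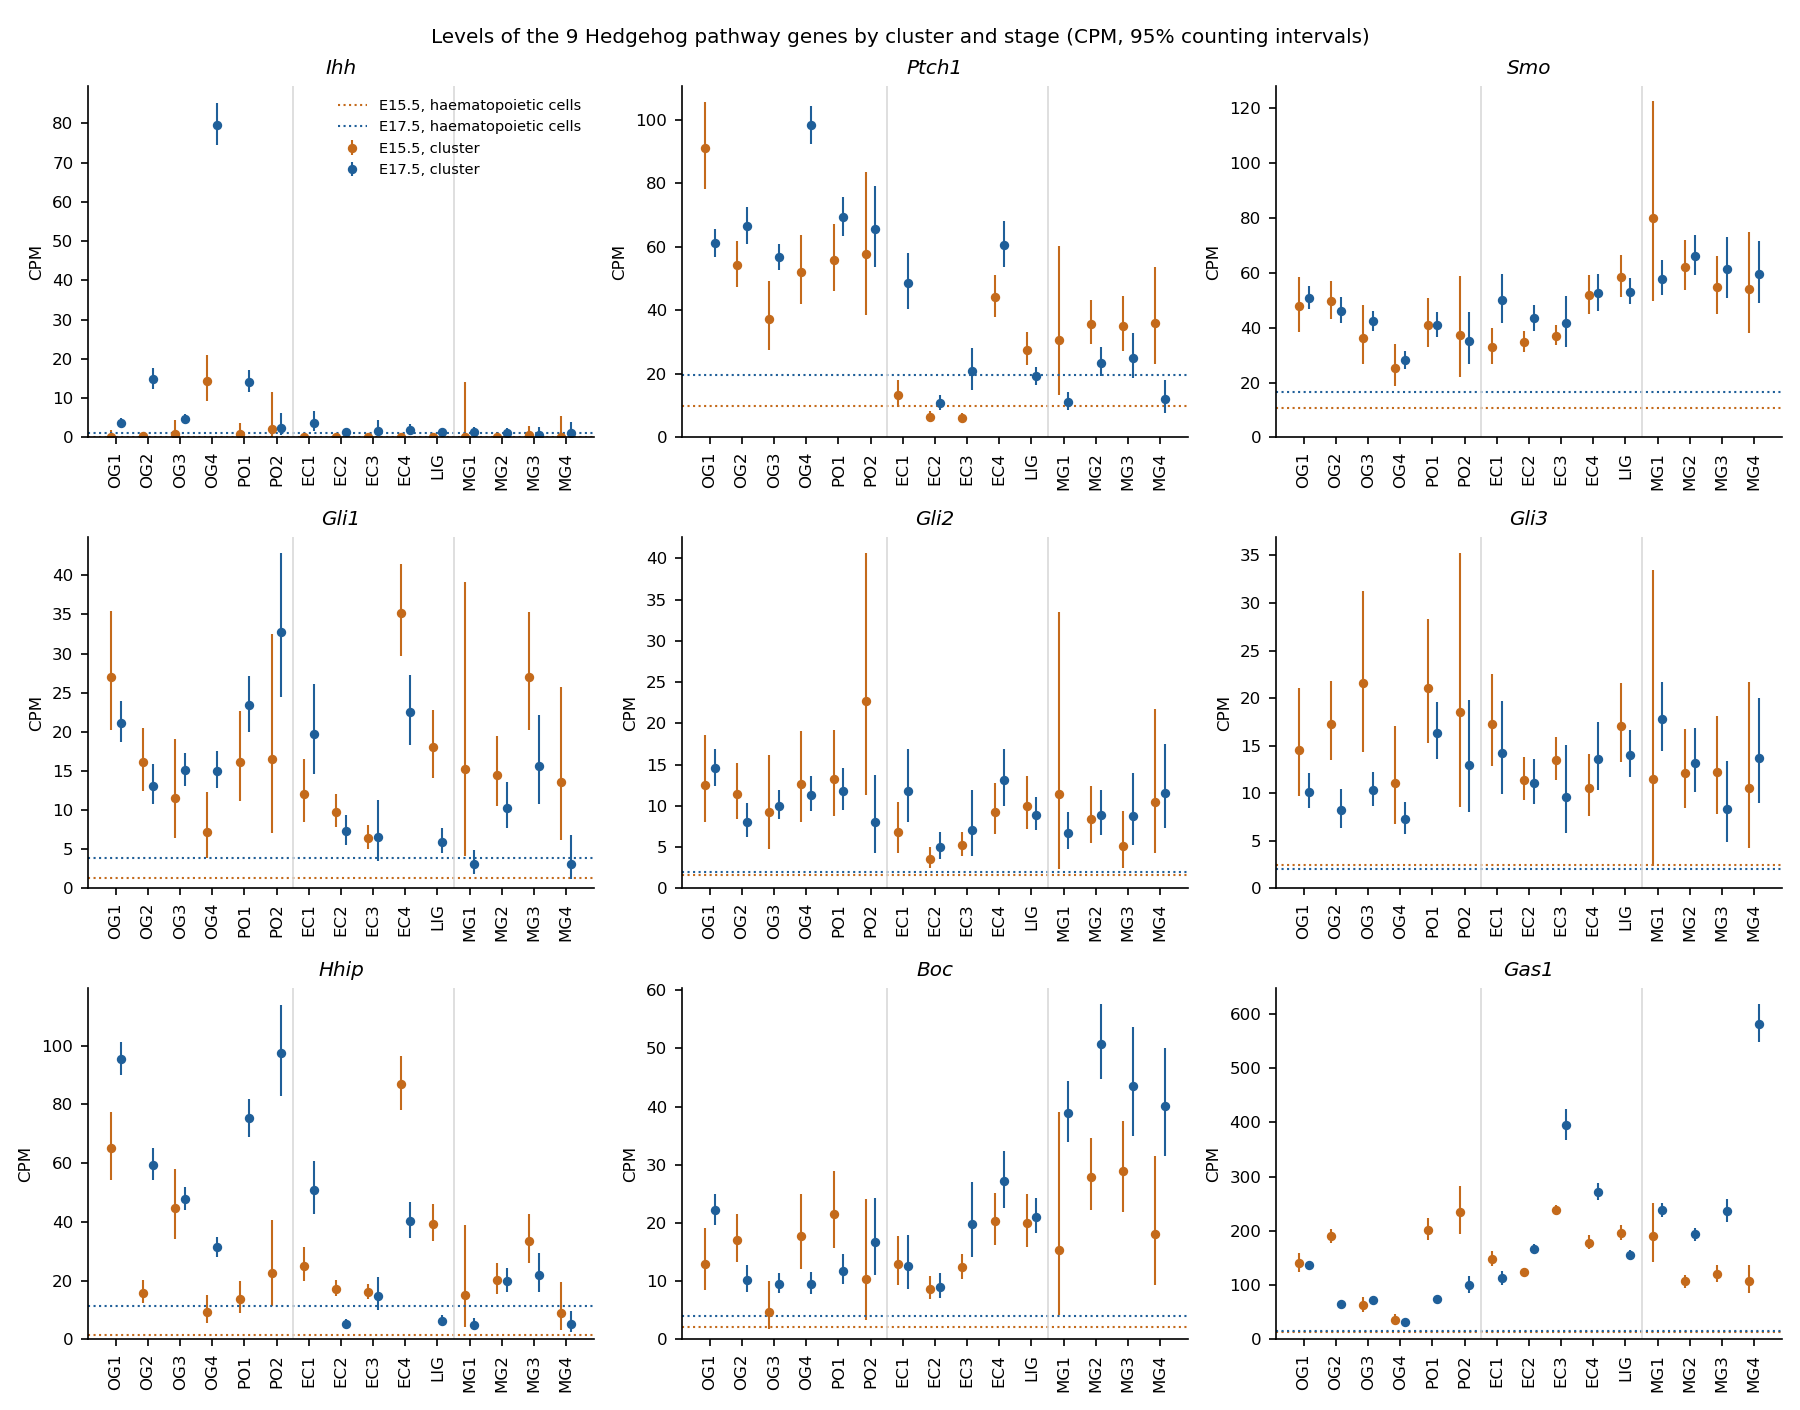
Level of each gene (CPM, vertical axis) in each of the 15 clusters at E15.5 (orange) and E17.5 (blue), with 95% counting intervals. Dotted lines give the level in haematopoietic cells of each library, and grey lines part osteogenic, ectocranial and meningeal clusters. Ihh stands out in OG4, Hhip in OG1, PO1 and PO2 at E17.5, and Gas1 in MG4 at E17.5.

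The authors built the clusters from the expression of these same cells, so levels by cluster describe the genes and test nothing. A cluster was called where its level was at least 2-fold that of all other labelled cells in both libraries. Over 9 genes and 15 clusters, 2 of 135 pairs were called: Ihh in OG4 and Hhip in OG1. Among the 12150 genes with at least 50 UMIs in both libraries, 20.7% were called in at least 1 cluster, so the 2 members called of 9 are near the background. OG4 called 3.02% of those genes and OG1 0.296%. Ihh itself had 34 UMIs in labelled cells at E15.5 and did not pass that minimum, whereas the other 8 genes did.

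Ihh, the ligand, was read in mature osteoblasts. Its level in OG4 was 14.4 CPM at E15.5 (9.39 to 21.1, 26 UMIs) and 79.7 CPM at E17.5 (74.3 to 85.2, 836 UMIs). These levels were 84.1-fold and 17.1-fold those of the other labelled cells. OG4 held 26 of the 34 UMIs at E15.5. At least 1 UMI was found in 12.6% of its cells at E15.5, at a median of 7352 UMIs per cell, and in 58.8% at E17.5, at a median of 19349 UMIs. With every cell thinned to 3000 UMIs the shares were 2.84% (5 of 176 cells) and 21.2% (112 of 527 cells), against 0 of 360 and 0.161% of haematopoietic cells. The E17.5 suffixes gave 87.1, 78.5 and 77.9 CPM in OG4, with overlapping intervals. Mature osteoblasts were thus the cells with the highest level in every suffix and both libraries. At E15.5 their interval overlaps those of PO2 (1 UMI, up to 11.5 CPM) and MG1 (0 UMIs, up to 14.1 CPM), which hold few cells.

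At E17.5 Ihh was also counted in the osteogenic clusters that are less mature. OG2 had 0.244 CPM (1 UMI) at E15.5 against 14.8 CPM at E17.5, and PO1 0.979 CPM (2 UMIs) against 14.03 CPM. OG1 and OG3 reached 3.60 and 4.58 CPM at E17.5, where haematopoietic cells had 1.11 CPM (0.480 to 2.19). At E15.5 OG4 alone had an interval above the upper bound of the haematopoietic cells (0 UMIs in 379 cells, and 3 counts would be 0.815 CPM), and at E17.5 OG1 to OG4 and PO1 did. Ectocranial and meningeal cells had 1.64 and 1.05 CPM at E17.5, near the haematopoietic level. Over the osteogenic lineage the level was 2.66 CPM at E15.5 and 22.3 CPM at E17.5, a ratio of 8.37 (5.86 to 12.4). Without OG2, PO1 and PO2 this ratio was 4.94, and within OG4 it was 5.54 (3.76 to 8.54). Against the other labelled cells the osteogenic level was 32.8-fold at E15.5, on 3 UMIs outside the lineage (10.2 to 168), and 15.52-fold at E17.5 (11.9 to 20.6). Unlabelled cells with chondrocyte markers, another known source of Ihh, had 0.709 CPM at E15.5 (1430 cells) and 7.94 CPM at E17.5 (301 cells). In OG4 the 5 chondrocyte markers summed to 469 CPM at E15.5 and 74.7 CPM at E17.5, within the range of the other clusters (207 to 1233 and 60.0 to 351 CPM).

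Ptch1, the receptor and a target gene, was highest in the osteogenic lineage at both stages. Its osteogenic level was 58.4 CPM (54.1 to 63.0) in the E15.5 library and 69.5 CPM (67.3 to 71.8) in the E17.5 library, which was 3.26-fold and 2.97-fold that of the other labelled cells. Of 12150 genes, 2.96% were at least 2-fold higher in the osteogenic lineage in both libraries, and among the 27 pairs of gene and lineage 2 were, Ihh and Ptch1. Without OG2, PO1 and PO2 the Ptch1 ratios were 3.52 and 3.01, and for OG3 and OG4 alone 2.55 and 3.21.

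The order of the osteogenic clusters in Ptch1 differed between the libraries. At E15.5 OG1 was highest, with 91.0 CPM (78.0 to 106), and OG4 had 52.0 CPM (42.0 to 63.6). At E17.5 OG4 was highest, with 98.2 CPM (92.3 to 104), and OG1 had 61.0 CPM (56.6 to 65.6). Within OG1 the level at E17.5 was thus 0.670 of that at E15.5 (0.568 to 0.795), and within OG4 it was 1.89-fold (1.53 to 2.36). Leaving out the OG1 cells with keratinocyte UMIs gave 93.6 CPM at E15.5. At least 1 UMI was found in 73.2% of OG4 cells at E17.5, at their median depth of 19349 UMIs, and in 13.6% of haematopoietic cells.

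In the ectocranial lineage Ptch1 was at 14.6 CPM at E15.5 and 26.7 CPM at E17.5. This was 0.289 and 0.458 of the level in the other labelled cells, and 2.78% of genes were at least 2-fold lower there in both libraries. The E17.5 value was above 0.5 as a mean of each cell's CPM (0.529), as a thinned share (0.626) and with clusters weighing equally (0.654). Within it EC4 had the highest level in both libraries, 44.2 CPM and 60.5 CPM (53.6 to 68.2), and its interval at E17.5 overlaps that of EC1. EC2 and EC3 at E15.5 had 6.30 and 6.06 CPM, no higher than the 9.78 CPM of haematopoietic cells. In EC1 the level was 13.3 CPM (9.56 to 18.1) at the earlier stage and 48.6 CPM (40.4 to 58.0) at the later, a ratio of 3.65. The E15.5 level of EC1 is not separable from that of haematopoietic cells (6.85 to 13.5 CPM). Meningeal cells had 35.3 CPM at E15.5 and 17.4 CPM at E17.5. The haematopoietic level was 19.7 CPM at E17.5, so in MG1 and EC2 (11.1 and 10.7 CPM) Ptch1 lay below that reference, and in MG4 (12.1 CPM), LIG (19.2 CPM), MG2, MG3 and EC3 it was not separable from it. The meningeal interval (15.3 to 19.7 CPM) overlaps that of haematopoietic cells (16.6 to 23.3 CPM). Ihh was at least 2-fold lower in ectocranial cells in both libraries, and in meningeal cells as well, though on 1 meningeal UMI at E15.5 (4.45% of genes were so called in meningeal cells).

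**Figure D2:**
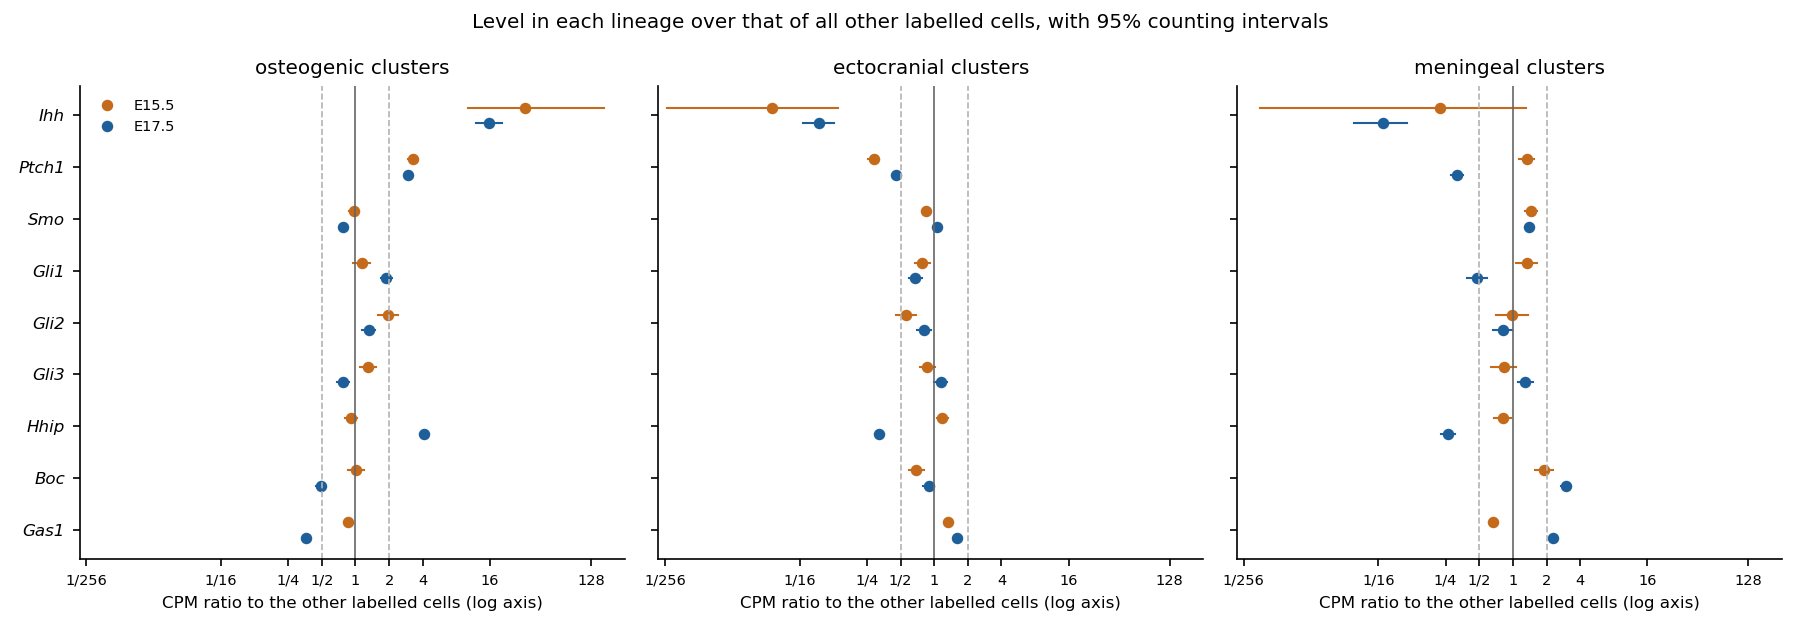
Level in osteogenic, ectocranial and meningeal clusters over that of all other labelled cells (horizontal log axis) for each gene at E15.5 (orange) and E17.5 (blue), with 95% counting intervals. Dashed lines mark 2-fold. Osteogenic Ihh and Ptch1 lie beyond 2-fold at both stages, while Hhip lies beyond it at E17.5 alone (0.910 and 4.10).

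Smo, the signal transducer, varied little, with the highest cluster 3.15-fold above the lowest at E15.5, and 2.35-fold later. At E15.5 osteogenic, ectocranial and meningeal cells had 42.1, 40.7 and 59.7 CPM. The E17.5 library gave 41.6, 49.0 and 61.4 CPM in the same order. Every cluster had an interval above that of haematopoietic cells (10.6 and 16.7 CPM). The meningeal level was 1.45-fold (1.29 to 1.63) and 1.39-fold (1.29 to 1.501) that of the other labelled cells, short of the 2-fold limit. OG4, where Ihh was highest, had the lowest Smo, with 25.4 CPM (18.6 to 33.9) and 28.1 CPM (24.99 to 31.5). Neighbouring clusters in the order of levels had overlapping intervals in 14 of 14 steps in both libraries.

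Gli1, the Gli factor that acts as an activator and is itself induced, reached its highest level at E15.5 in EC4, with 35.2 CPM (29.7 to 41.4). OG1 and MG3 followed with 27.04 and 26.96 CPM, and their intervals overlap that of EC4. At E17.5 PO2 had 32.7 CPM (24.5 to 42.8), PO1 23.4, EC4 22.5 and OG1 21.2 CPM. EC4 and OG1 were thus among the higher clusters in both libraries. Haematopoietic cells had 1.36 CPM at E15.5 and 3.89 CPM at E17.5. In MG1, MG4, LIG, EC3 and EC2 at E17.5 Gli1 was at 3.09, 3.16, 5.97, 6.60 and 7.30 CPM, with intervals that overlap the haematopoietic one (2.58 to 5.62 CPM). LIG had 18.1 CPM at E15.5. Over the osteogenic lineage Gli1 stood at 16.04 CPM in the earlier library and 17.9 CPM in the later, which was 1.14-fold (0.958 to 1.35) and 1.89-fold (1.68 to 2.14) that of the other cells. For OG3 and OG4 alone these were 0.640 and 1.59, so at E15.5 the direction turned.

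Gli2, which relays most of the activating signal, had osteogenic, ectocranial and meningeal levels of 12.4, 6.05 and 7.68 CPM in the E15.5 library. These were 11.2, 8.61 and 8.40 CPM in the E17.5 library. The osteogenic level was 1.96-fold (1.58 to 2.42) that of the other cells at E15.5 and 1.32-fold (1.15 to 1.51) at E17.5. EC2 was the lowest cluster in both libraries, with 3.58 and 5.03 CPM. Gli3, mainly a repressor in the absence of signal, had an osteogenic level of 17.1 CPM at E15.5, against 10.3 CPM later, a ratio of 0.601 (0.510 to 0.711). Its ectocranial level was 13.3 and 12.7 CPM and its meningeal level 11.9 and 14.4 CPM. Within the osteogenic lineage the ratio was lowest in OG2 (0.474) and OG3 (0.477, 0.316 to 0.745). For Gli3 the direction from E15.5 to E17.5 was the same in all 6 osteogenic clusters, although in 4 of them the interval includes 1.

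Of the UMIs of the 3 Gli genes together, Gli1 made up 35.3% (31.2 to 39.5) in osteogenic cells at E15.5 and 45.4% (43.3 to 47.6) at E17.5. In meningeal cells the share of Gli1 was 48.7% (42.0 to 55.4) at E15.5 and 24.4% (20.4 to 28.8) at E17.5, and that of Gli3 was 31.3% and 47.7%. Ectocranial cells had 40.6% and 33.2% Gli1. MG1 at E17.5 held 11.2% Gli1 and 64.5% Gli3 (152 UMIs), and EC4 at E15.5 held 64.0% Gli1 and 19.1% Gli3 (225 UMIs). The share of Gli1 was thus higher at E17.5 in osteogenic and lower in meningeal cells, without a test. The meningeal share differed between the suffixes, with 46.4% (35.5 to 57.6) in suffix 1, near the E15.5 value, 13.9% in suffix 2 and 23.1% in suffix 3. Without MG1 it was 49.1% at E15.5 and 31.7% (26.2 to 37.5) at E17.5. The osteogenic share was 53.1%, 44.1% and 43.6% in the suffixes 1, 2 and 3, and without OG2, PO1 and PO2 it was 37.2% (30.7 to 44.0) and 44.6% (41.9 to 47.3), whose intervals overlap. Since 3′ capture may differ between the genes, only differences of a share between cells are compared.

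**Figure D3:**
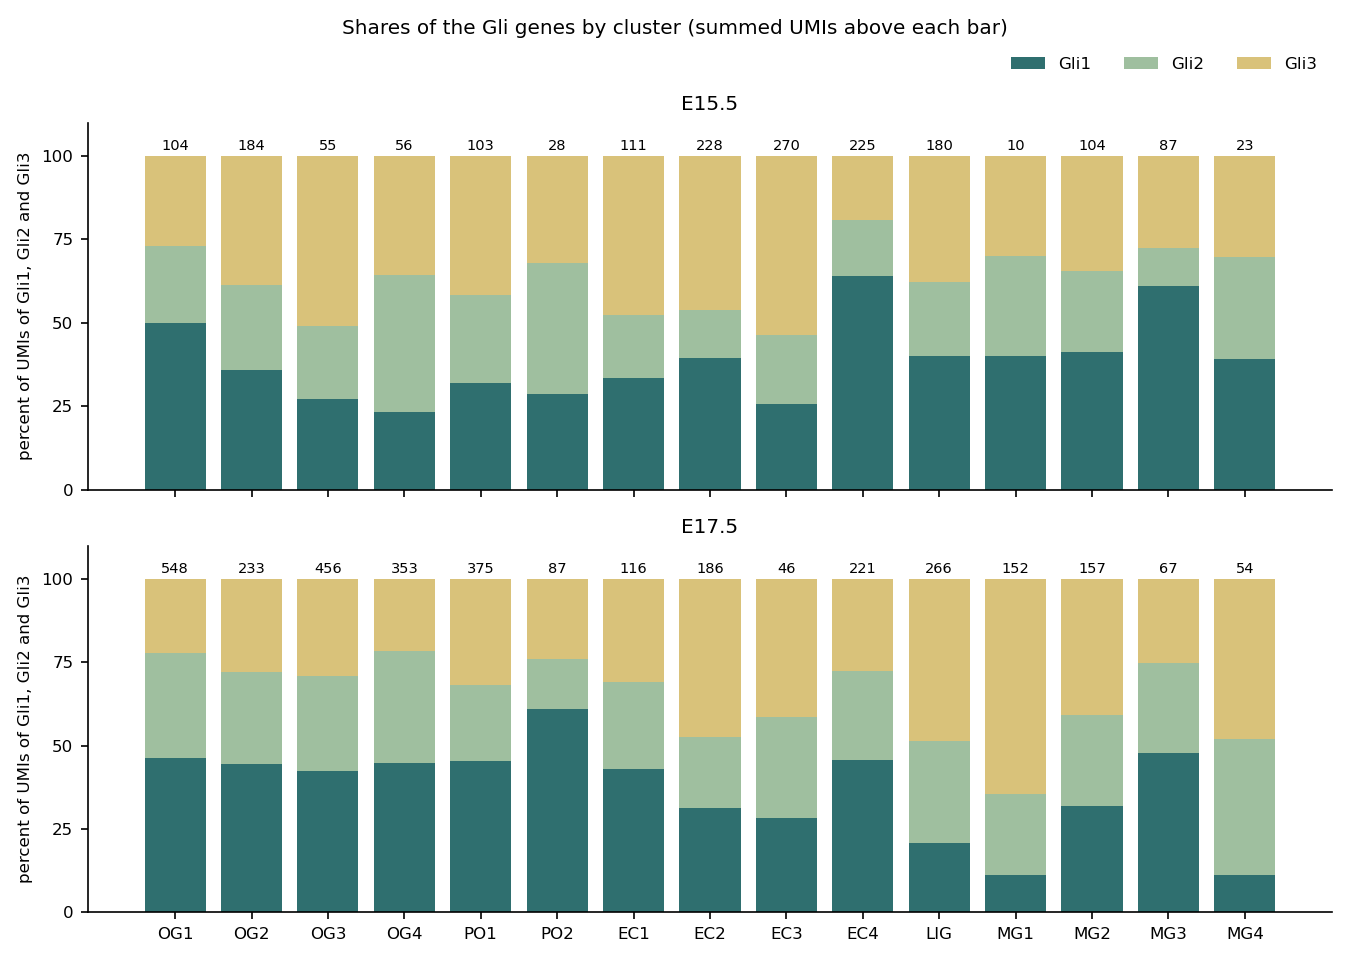
Percent of the UMIs of Gli1, Gli2 and Gli3 taken by each gene (vertical axis) in each cluster, at E15.5 (top) and E17.5 (bottom), with the summed UMIs above each bar. Gli1 takes the largest part in EC4 at E15.5 (64.0%) and Gli3 in MG1 at E17.5 (64.5%). MG1 at E15.5 rests on 10 UMIs.

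Hhip, the secreted and membrane-bound antagonist that binds Hedgehog ligands, differed more between the layers at E17.5 than at E15.5. At E15.5 osteogenic, ectocranial and meningeal cells had 26.1, 29.7 and 23.2 CPM, and EC4 was highest with 87.0 CPM (78.2 to 96.5). The E17.5 levels were 62.6, 16.8 and 12.5 CPM, and PO2 (97.6 CPM, 82.9 to 114) and OG1 (95.5 CPM, 90.0 to 101) were highest. The osteogenic level relative to the other labelled cells was 0.910 (0.799 to 1.04) at E15.5 and 4.10-fold (3.76 to 4.48) at E17.5. Without OG2, PO1 and PO2 it was 1.39-fold and 3.87-fold, so the direction at E15.5 rests on these clusters, and for OG3 and OG4 alone it was 0.843 and 2.65-fold.

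OG1, which the study places at the start of its osteogenic clusters and whose osteogenic markers were low at E15.5, was the only cluster above 2-fold for Hhip in both libraries. Its level was 65.0 CPM (54.1 to 77.5) at E15.5 and 95.5 CPM at E17.5, which was 2.45-fold and 2.81-fold that of the other cells. At E15.5 this fold was 1.99 as a mean of each cell's CPM, 1.96 as mean UMIs per cell and 1.72 as a share of cells thinned to 3000 UMIs, so the call depends on the measure. Without the cells that held keratinocyte UMIs the E15.5 level was 69.7 CPM. The ratio of E17.5 to E15.5 was 1.47 in OG1 and higher in OG2 (15.8 and 59.5 CPM, 3.76), PO1 (13.7 and 75.2 CPM, 5.49) and OG4 (9.395 and 31.4 CPM, 3.35). OG3 had 44.8 and 47.9 CPM, a ratio of 1.07.

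Outside the osteogenic lineage LIG, EC2, EC4 and MG3 had less Hhip at E17.5. Counting intervals of the ratio did not separate the stages in MG2 (0.703 to 1.38) or EC3 (0.590 to 1.35). The same held for MG1 (0.112 to 1.26) and MG4 (0.192 to 1.95). LIG had 39.4 CPM (33.4 to 46.02) in the earlier library and 6.41 CPM (4.88 to 8.27) in the later, EC2 17.3 and 5.16 CPM, and EC4 87.0 and 40.3 CPM. EC1 had more at E17.5, with 25.03 and 51.0 CPM. Haematopoietic cells held 1.36 CPM of Hhip at E15.5, against 11.4 CPM at E17.5 (9.06 to 14.1), so the E17.5 levels of LIG, EC2 and MG1 (4.90 CPM) lie below that reference, and those of EC3 and MG4 are not separable from it. In the 3 suffixes haematopoietic Hhip was at 9.38, 18.4 and 5.55 CPM.

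Boc and Gas1 are co-receptors that help Ptch1 bind ligand. Boc was highest in meningeal cells at both stages, with 26.6 CPM (22.6 to 31.1) in the first library and 43.8 CPM (40.4 to 47.3) in the second. This was 1.90-fold (1.59 to 2.27) and 3.00-fold (2.72 to 3.31) that of the other labelled cells, and the first misses the limit. Without likely doublets it was 2.03-fold, without OG2, PO1 and PO2 2.01-fold, and as a mean with clusters weighing equally 1.57-fold. MG2 and MG3 led at E15.5, with 28.0 and 29.0 CPM, and MG2 at E17.5, with 50.8 CPM. Osteogenic cells had 15.6 and 13.1 CPM and ectocranial cells 13.4 and 17.6 CPM. Haematopoietic cells had 2.17 and 4.03 CPM of Boc, below the intervals of all clusters at E17.5 and of 12 of 15 at E15.5.

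Gas1, a membrane-anchored co-receptor, was counted in all layers and lowest in mature osteoblasts. OG4 had 36.5 CPM (28.2 to 46.4) in the earlier library and 31.4 CPM (28.1 to 35.02) in the later, the lowest of the 15 clusters in both, against 13.6 and 14.7 CPM in haematopoietic cells. At E15.5 EC3 was highest with 238 CPM and PO2 had 236 CPM. At E17.5 MG4, which the study places in the arachnoid, was highest with 582 CPM (548 to 617), against 108 CPM (84.8 to 136) at E15.5, and EC3 had 395 CPM. Suffix 1 held 7 of the MG4 cells, at 245 CPM (148 to 383), below the 602 and 590 CPM of the suffixes 2 and 3. For Gas1 the intervals of neighbours in the order overlapped in 5 of 14 steps at E17.5 and in 11 of 14 at E15.5. Such overlap also depends on the number of UMIs, so it is not compared between genes.

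A gene was called between stages where its CPM in a lineage differed at least 2-fold. Of the 8 genes with enough UMIs, Hhip was higher at E17.5 in osteogenic cells (2.40-fold, 2.13 to 2.71) and Gas1 in meningeal cells (2.33-fold, 2.15 to 2.53). Over all genes tested, 5.40% were so called in osteogenic, 5.66% in ectocranial and 6.30% in meningeal cells. Ptch1 (0.494, 0.409 to 0.596) and Gli1 (0.395, 0.299 to 0.521) were lower at E17.5 in meningeal cells, where 3.89% of genes were; 11.4% were in osteogenic and 7.25% in ectocranial cells, where no member was.

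**Figure D4:**
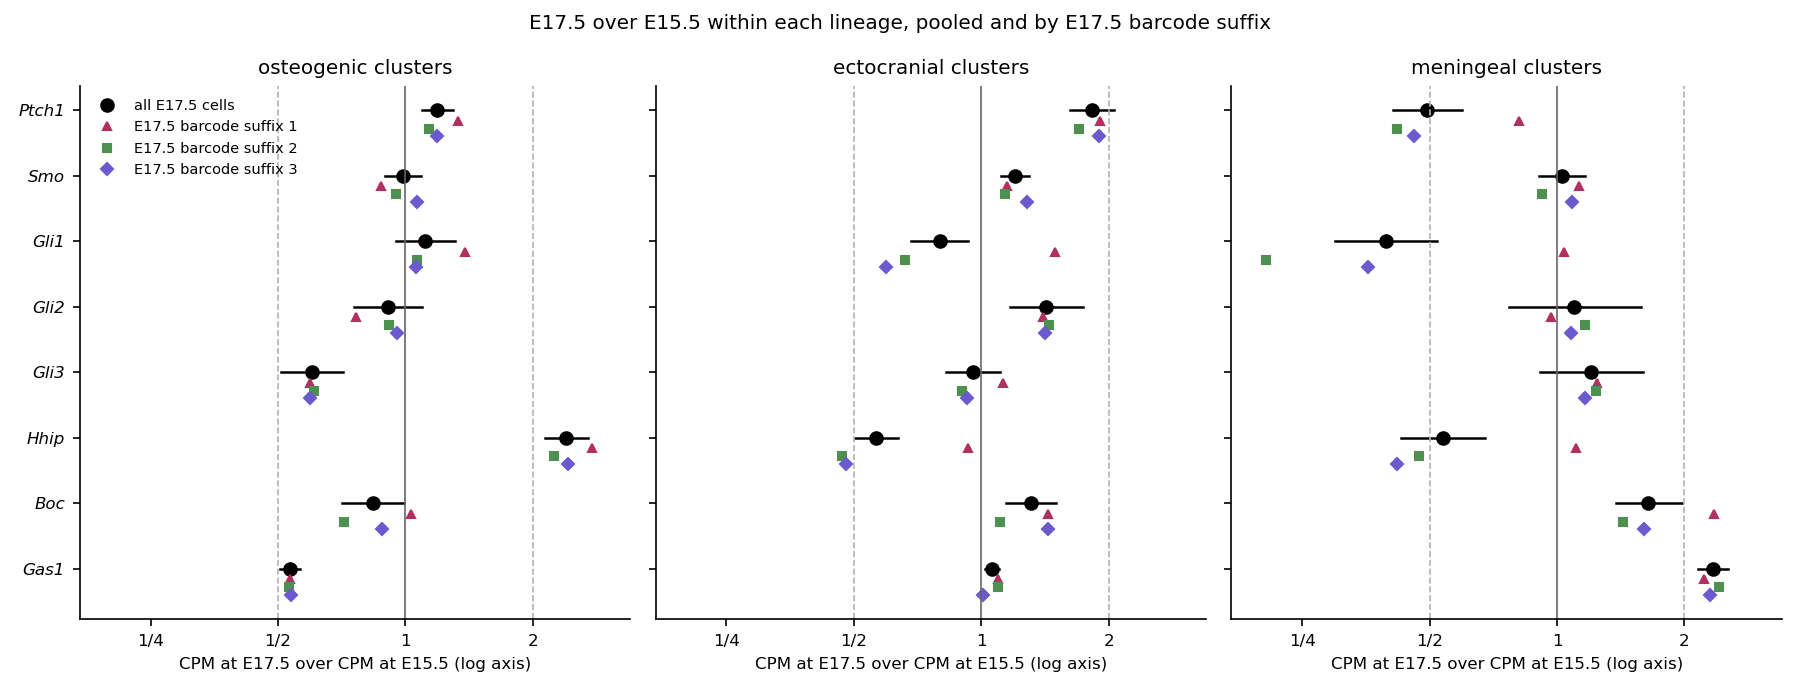
CPM at E17.5 over CPM at E15.5 (horizontal log axis) within each lineage for the 8 genes with enough UMIs. Black points give all E17.5 cells with 95% counting intervals and coloured points each E17.5 barcode suffix over the same E15.5 level. Suffix 1 lies apart from the others for Gli1 and Hhip in ectocranial and meningeal cells, and the suffixes lie together for Gas1.

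The meningeal values of the target genes differed within the E17.5 library. Of MG1 the E15.5 library had 28 cells and the E17.5 library 423, with none of suffix 1. Without MG1 the meningeal ratios were 0.602 for Ptch1 and 0.534 for Gli1, and neither call remained. Without MG4 they were 0.518 and 0.415, and the call of Ptch1 was lost. Meningeal Gli1 at E17.5 was at 19.3 CPM (13.7 to 26.4) in suffix 1, 3.83 CPM (2.37 to 5.85) in suffix 2 and 6.64 CPM (4.84 to 8.89) in suffix 3, so suffix 1 did not overlap the others. With suffix 1 alone the ratio to E15.5 was 1.04 for Gli1 and 0.813 for Ptch1. In the same way meningeal Hhip was at 25.7, 10.9 and 9.74 CPM and ectocranial Hhip at 27.7, 13.9 and 14.2 CPM in the suffixes 1, 2 and 3, and ectocranial Gli1 at 19.8, 8.75 and 7.90 CPM. The suffixes also differed in clusters, with 32, 314 and 329 LIG cells and 7, 102 and 93 MG4 cells in the same order. Within each ectocranial and meningeal cluster where suffix 1 had cells, its Hhip interval overlapped the others. Its Hhip level was the highest there except in EC1 and EC2. Gli1 was highest in suffix 1 in each, with an interval clear of the others in LIG alone (23.6, 4.85 and 5.69 CPM). The parts of the batches and of the cluster mix in this were not tested.

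The values past 2-fold that held in every suffix were those of Hhip in osteogenic and of Gas1 in meningeal cells. Osteogenic Hhip was at 72.1, 58.5 and 63.1 CPM and meningeal Gas1 at 256.4, 278 and 265 CPM. Both calls at 2-fold are lost when 1 cluster is left out, while the direction remains. Within clusters the Hhip ratio was 3.76 in OG2, 5.49 in PO1, 4.29 in PO2 and 3.35 in OG4. In OG1 and OG3 it was 1.47 and 1.07. Without OG2 the osteogenic ratio of Hhip was 1.996 (1.75 to 2.29), and without OG2, PO1 and PO2 it was 1.49, both below the limit. The meningeal ratio of Gas1 was 1.90 (1.74 to 2.08) without MG4, also below the limit, and 2.43 to 2.58 without any 1 of the other clusters; MG4 itself had 5.37 (4.23 to 6.91) and MG1, MG2 and MG3 1.25, 1.81 and 1.98. Osteogenic Gas1 was at 148 CPM at E15.5 and 79.0 CPM at E17.5 (0.534, 0.505 to 0.565), but this difference lay in OG2 (190 and 65.2 CPM), PO1 (202 and 73.9 CPM) and PO2 (236 and 100.0 CPM). In OG1 Gas1 was at 141 and 136 CPM, and without the 3 clusters the osteogenic ratio was 0.986. Osteogenic Boc had a ratio of 0.838 (0.710 to 0.992), which was 1.10 without the same clusters. OG2 is also where the osteogenic markers were near the ectocranial level at E15.5, and Osr1 and Osr2, target genes high in ectocranial cells, were there at 71.4 and 147 CPM, against 3.15 and 2.27 CPM at E17.5.

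Whether cells with a UMI of 1 gene also held another was counted after thinning every cell to 3000 UMIs, which kept 5175 cells of the first library and 6830 of the second, beside the number if the genes were independent within a cluster. Gli1 and Ptch1 were found together in 38 cells against 19.8 at E15.5 (1.92-fold, 1.36 to 2.64) and in 50 against 35.4 at E17.5 (1.41-fold, 1.05 to 1.86). For Ptch1 and Hhip the count was 35 cells against 29.0 at E15.5 (0.839 to 1.68) and in 142 against 96.7 at E17.5 (1.47-fold, 1.24 to 1.73). Gli1 and Ptch1 were thus found in the same cells more often than their clusters give in both libraries. For Ptch1 and Hhip the interval lay above 1 at E17.5, but it overlaps that of E15.5, so no difference between stages is shown. The cells come from 1 library per stage and are not replicates, and no test was made. The expected number is by cluster, whereas levels over all labelled cells also differed between the E17.5 suffixes. Gli1 was at 21.0, 12.9 and 12.7 CPM and Hhip at 51.3, 39.5 and 40.6 CPM in the suffixes 1, 2 and 3. The part of the suffixes in these counts was not tested. For Gli1 and Hhip the ratio was 1.14 (0.725 to 1.72) and 1.39 (1.02 to 1.86). Gli1 and Gli3 met in 4 cells against 8.59 and in 6 against 9.08, with intervals that include 1. Ihh and Ptch1 met in 0 cells against 0.866 at E15.5 and in 47 against 36.7 at E17.5 (1.28-fold, 0.941 to 1.70). The remaining 7 pairs had intervals that include 1 in both libraries.

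Over the 15 clusters, the genes with the most similar profile to each member were ranked by the mean over both libraries of Pearson's r of log2(CPM + 1), among 9863 genes with at least 200 UMIs in both. These correlations describe 15 clusters that share a library. Gli1 and Hhip ranked first for each other (r of 0.69 in the E15.5 library, 0.92 in the E17.5 library), and Ptch1 was the third for Gli1 (0.57 and 0.85). Genes with leading places were Rasa3 and Smpd3 for Ihh, for Ptch1 2010111I01Rik, Wif1, a secreted Wnt inhibitor, and Pkm, and for Smo Tceal1, Mfap2 and Rhod. Tiam1 was the second for Gli1, and Asap1 and Cbfb, the partner of Runx factors, followed for Hhip. Gli2 was most like Frmd4a, Tnfrsf19 and Bcl11a, and Gli3 ran with Ccdc82 and Fam107b. Boc was most like Slc7a2, Strbp and Tceal5, and Gas1 most like Rgma (0.91 and 0.93), Bend5 and Prickle1. Ihh ran against Gas1 across clusters, with r of -0.60 and -0.84. The E15.5 profile of Ihh rests on 34 UMIs, 26 of them in OG4. Its E15.5 values of r, those with Rasa3 and Smpd3 included, thus mostly set OG4 against the other clusters.

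Of 46 other genes of the pathway, 35 had at least 50 UMIs in both libraries. In all 10 were called in at least 1 cluster, where 20.7% of all genes were. By role these were 8 of 11 target genes and 0 of 17 genes of signal relay and the cilium. Of ligand release it was 1 of 4 genes, and of receptors and co-receptors 1 of 3. The lists were chosen with earlier results of these data known, and the difference between roles was not tested. The remaining ligands were nearly absent from labelled cells: Shh had 0 UMIs in both libraries, which allows up to 0.0617 CPM at E15.5 and 0.0324 CPM at E17.5, and Dhh had 30 and 5 UMIs. Cdon, a co-receptor related to Boc, was at 43.8 and 44.7 CPM in meningeal cells and 28.4 and 11.5 CPM in osteogenic cells. It was called in MG1 (2.14-fold and 2.26-fold), at E15.5 on 18 UMIs (1.26 to 3.39). MG3 had 1.80-fold and 2.80-fold, MG2 1.065-fold and 1.62-fold, and MG4 1.21-fold and 1.81-fold. The call thus does not set MG1 apart from MG3.

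In the group of ligand release, Scube3, a secreted carrier of Hedgehog ligands, was called in MG2, MG3 and MG4, with a meningeal level of 29.9 and 24.0 CPM, 9.60-fold and 9.69-fold that of the other cells. Disp1, which releases lipid-bound ligand, was 2.91-fold and 2.93-fold higher in the ectocranial lineage (22.9 and 19.1 CPM). Among target genes, the forkhead factors Foxc2 and Foxd1 were called in MG1 to MG4 and Foxd2 in MG2 to MG4, with Foxd1 at 63.1 CPM in meningeal cells at E15.5 and 129 CPM at E17.5. Pthlh, a secreted regulator of growing cartilage, was called in MG2 and MG4, Osr1 in EC2, and Rasl11b in OG1 (2.097-fold and 2.18-fold) and EC4. Mycn was called in OG2, OG3 and PO2 and the cyclin Ccnd1 in OG2 (2.01-fold and 2.09-fold). The median ratio of the 35 genes in osteogenic cells against other cells was 0.925 at E15.5 and 0.832 at E17.5, beside 1.02 and 0.964 over all 12150 genes. Of the 8 target genes called, 4 were called in meningeal clusters (Foxc2, Foxd1, Foxd2 and Pthlh). Between stages 3 of 35 were higher and 5 lower at E17.5 in osteogenic cells, 3 and 1 of 33 in ectocranial cells and 4 and 1 of 32 in meningeal cells. Over all genes 5.40% and 11.4%, 5.66% and 7.25%, and 6.30% and 3.89% were so called in the same order.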

How the data were processed

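Single cells were run on 10x Genomics Chromium 3′ chemistry. The authors deposited 1 matrix of UMI counts per stage, without normalization and before cell filters, and a table with each cell's cluster. Cell Ranger 3.1.0 is written in the E15.5 file. For E15.5 the authors list 5340 cells, 5 of them not found among the barcodes, and the UMI totals of the matrix equal the table's in all 6830 cells at E17.5 and in 0 at E15.5 (table median 11507). The build is mm10 per the labels.

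UMIs were summed by cluster and library with Python 3.11.15, numpy 2.4.6, pandas 2.3.3 and scipy 1.17.1. Labelled cells outside the limits (1000 UMIs, 1000 genes, 7.5% mitochondrial and 3% Hbb and Hba UMIs), 93 at E15.5, were kept. Unlabelled cells inside them (2875 and 1937) were gated by at least 3 markers of 1 cell type and at most 1 of each other. Where a count was 0, a limit of 3 counts is given. Ratios were called at 2-fold, without p-values, and the computation was tested on simulated data. Genes named are the 9 members, the called genes, ligands and co-receptors of a list of 46 pathway genes, and the 3 genes most like each member, of which some are not reported here. The members and lists were chosen with earlier results of these data known. Scrublet scores (scanpy 1.11.5) served 1 alternative, which left out cells scoring from the 94th percentile upward in each suffix. Alternatives on MG1 and MG4, on OG1, OG2, PO1 and PO2, on keratinocyte UMIs and on equal weights of clusters were chosen after seeing the data.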

Additional observations from a re-analysis of the deposited data

Results flagged for a closer look

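The E17.5 to E15.5 ratio of some genes pointed in opposite directions in different lineages, with intervals that do not overlap; with 1 library per stage this difference was not tested. Ptch1 had a ratio of 1.19 in osteogenic and 1.82 in ectocranial cells, against 0.494 in meningeal cells. Hhip had 2.40 in osteogenic cells, against 0.566 in ectocranial and 0.537 in meningeal cells. Boc had 0.838 in osteogenic cells, against 1.31 in ectocranial and 1.64 in meningeal cells, and its osteogenic ratio was 1.10 without OG2, PO1 and PO2 and 1.03 with suffix 1 alone. Gas1 had 0.534 in osteogenic cells, against 1.06 in ectocranial and 2.33 in meningeal cells. With suffix 1 alone the Hhip ratios were 0.932 in ectocranial and 1.11 in meningeal cells, and for Gas1 the osteogenic ratio was 0.986 without OG2, PO1 and PO2 and the meningeal ratio 1.90 without MG4.

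Cells outside the authors' labels that carry chondrocyte markers (1430 at E15.5 and 301 at E17.5) held 6 of the genes in both libraries above the level of haematopoietic cells. Smo was at 42.8 and 41.2 CPM in them at E15.5 and E17.5, against 10.6 and 16.7 CPM in haematopoietic cells. Gli2 was at 8.51 and 12.8 CPM, against 1.63 and 1.95 CPM. Gli3 was at 21.9 and 13.3 CPM, against 2.45 and 2.08 CPM. Hhip was at 6.32 and 20.0 CPM, against 1.36 and 11.4 CPM, and its E15.5 level in chondrocyte cells was 1.96 CPM under the gate of at least 2 markers with none of another list. Boc was at 21.2 and 21.8 CPM, against 2.17 and 4.03 CPM. Gas1 was at 58.5 and 147 CPM, against 13.6 and 14.7 CPM.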

How the results depend on the processing

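No paired analysis was possible because each stage is 1 deposited sample and the E17.5 suffixes have no counterpart at E15.5. Of 1344 ratios recomputed under 17 settings, 1086 stayed inside their counting interval. In 52 the direction turned, and in 16 of these the interval as reported lay clear of 1. The turned ratios that had been past 2-fold were meningeal Ihh against other cells at E15.5 (1.03) and between stages (0.996), both as thinned shares that rest on few cells, and meningeal Gli1 between stages with suffix 1 alone (1.04). The counts as reported were 2 called pairs of gene and cluster, 2 of gene and lineage, 2 stage ratios higher and 2 lower at E17.5. As a mean of each cell's CPM 1 was lower, and Ptch1 in OG4 (2.28-fold and 2.465-fold) was called in place of Hhip in OG1. As reported, Ptch1 in OG4 was at 1.946-fold and 2.276-fold. It was also called with the most abundant genes left out of the totals, and without PO1 and PO2. As mean UMIs per cell 6 cluster pairs were called, Ptch1 in OG4 among them and Hhip in OG1 not, and 5 stage ratios were higher and 1 lower. As thinned shares 1 was higher, and Boc in MG3 was called in place of Hhip in OG1. Without likely doublets 5 cluster pairs were called, Ptch1 in OG4 and Boc in MG2 and MG3 being added. With the suffixes 1, 2 and 3 alone, 0, 4 and 4 were lower. A limit of 1.5-fold gave 9 cluster pairs, 4 higher and 6 lower, and one of 3-fold gave 1 cluster pair, 1 lineage pair, 0 higher and 0 lower. With clusters weighing equally 1 was lower, without MG1 0 were lower, without MG4 1 was higher and 1 lower, and without OG2, PO1 and PO2, with or without OG1, 1 was higher. The cause of these differences was not tested. Called in at least 1 cluster were 44.0% of genes at 1.5-fold and 8.69% at 3-fold, and 16.4% and 28.5% with at least 200 UMIs and 1 UMI. Depth limits Ihh at E15.5 (34 UMIs) and MG1 at E15.5 (28 cells).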
